A study of Mus musculus with 4 samples.

Results

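The endothelial identity genes were 10 genes chosen by symbol, namely Cdh5, Pecam1, Kdr, Flt1, Tek, Tie1, Erg, Emcn, Vwf and Nos3, out of 24421 genes in the count tables. Each was read as gene counts, as read depth at its exonic and intronic sites, and as adenosine-to-inosine editing, which appears in reads as an A-to-G change. Lung endothelial cells (ECs) came from 2 inducible ADAR1 knockout (i-KO) mice of the C57/BL6 strain, male and 2 weeks old, from separate litters. The cells of each mouse were cultured as a TM dish, given 4-hydroxytamoxifen to delete Adar, and a CON dish, left untreated, which gave 4 total RNA libraries, CON and TM of mouse EC1 and CON and TM of mouse EC2. Where 4 values stand in a row, they follow this order. Both dishes of a mouse carried the floxed Adar alleles and the inducible Cre, whose driver is not given in the sources used here. No tamoxifen control without Cre was analysed here, so tamoxifen and the deletion cannot be told apart. The ECs were taken with beads against CD31, the protein of Pecam1, and after culture with beads against ICAM-2, so the presence of Pecam1 in all libraries was set by the selection. The comparison asked whether ECs that lost ADAR1 kept the RNA of the genes by which ECs are recognised.

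These genes encode the proteins by which the lining of blood vessels is usually recognised. Cdh5 (VE-cadherin) and Pecam1 (CD31) join neighbouring ECs, and Emcn (endomucin) coats their surface. Kdr and Flt1 are receptors of vascular endothelial growth factors, Kdr as the main signalling receptor and Flt1 largely as a decoy that also exists in a soluble form. Tek (Tie2) is the receptor of the angiopoietins, and Tie1 is its partner. Erg is an ETS transcription factor that maintains EC identity, Vwf encodes von Willebrand factor, stored in ECs for clotting, and Nos3 encodes the endothelial nitric oxide synthase. ADAR1 is the enzyme that edits adenosines in double-stranded RNA, for which inverted repeats in introns and 3′ UTRs are common substrates.

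Adar was read first as a check of the labels. The deletion runs over exons 12 to 15 by the study's description. Over exons 12 to 14 the site table lists 3 sites in EC1 CON (median 145 reads) and none in EC1 TM. For EC2 it lists 1 site in CON (169 reads) and 2 in TM (median 65.5 reads). Per 100000000 reads these depths were 109 in EC1 CON, 118 in EC2 CON and 31.6 in EC2 TM. In exon 15, the last exon and also part of the deleted stretch, the depth per 100000000 reads was 74.4 and 109 in CON (9 and 2 sites). It was 320.2 and 403 in TM (17 and 15 sites). Exon 15 thus showed no loss in TM, while the sites of exons 12 to 14 were lower or not listed there. CON and TM below mean the libraries so labelled. In exons 1 to 11, upstream of the deletion, the depth per 100000000 reads was 115 and 123 in CON and 504 and 483 in TM. Exon 15 was thus higher in TM along with the exons outside the deletion, so its raw depth cannot decide the labels. Why it was not lower was not tested. The libraries held 1095488 to 1778732 counts on genes, only 0.823% to 0.858% of the table totals, and the counts of the 8 members tested were 0.126% to 2.05% of the read pairs that their exonic depth implied, taking 200 bases per pair. In a check chosen after the data were seen, counts were 0.289% to 0.425% of the implied read pairs at the median of 4392 genes that share no exon base with a gene on the other strand, and 0.587% to 0.821% at the median of 1692 genes that share at least 100 such bases, of which 8.75% to 9.99% lay above 20%, against at most 1.41% of the first set. The strand setting of the counting is not given in the sources used here, so a count may hold residual reads of the strand opposite to the gene's RNA, and the counts are printed below as deposited, not as an independent measure of a gene's level. Exonic depth rests on far more reads. It is the median number of reads over the exon, 5′ UTR and 3′ UTR sites that the site table lists for a gene in a library, per 100000000 reads of the table total. Every listed site held at least 1 altered read in that library, so a gene had different listed sites in different libraries.

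Exonic depth is a per-base level, but it rests on different listed sites in each gene and library, so genes can be compared only roughly. By this measure Cdh5 was the highest member, with a mean of 4856 ± 387 (SD, n = 4 libraries) per 100000000 reads, above 99.4% of the genes tested. Emcn followed with 4269.8 ± 908 and its range overlapped that of Cdh5, so the order of these genes is not set by the data. Pecam1 stood at 2039 ± 577, overlapping with Tie1 at 1272 ± 367. Kdr at 712 ± 134 and Erg at 399 ± 116 did not overlap with their neighbours. Tek at 131 ± 25.4 and Flt1 at 121 ± 28.7 overlapped and lay near the middle of all genes tested, above 49.3% and 46.1% of them. Nos3 at 28.6 ± 12.7 and Vwf at 6.48 ± 2.99 were the lowest. All 10 genes had listed sites in every library, and Vwf, a defining marker of many ECs, was at or under 2 counts in each.

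**Figure D1:**
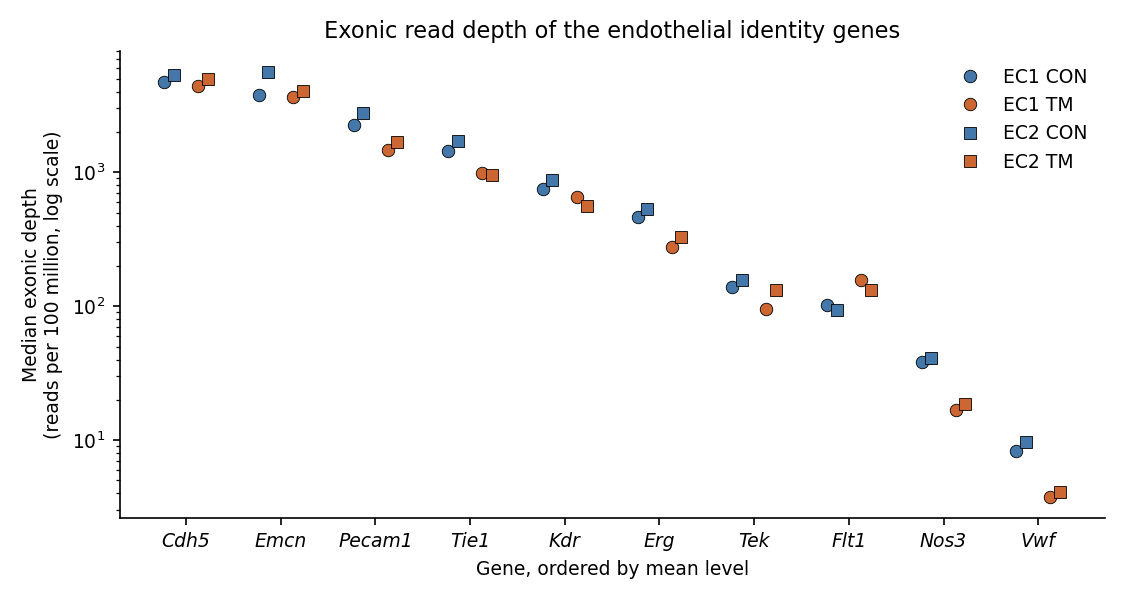
Median exonic read depth (reads per 100000000, log scale) of the 10 endothelial identity genes in each library, with blue for CON, orange for TM, circles for mouse EC1 and squares for mouse EC2. Cdh5 and Emcn lie highest and Vwf lowest, and the TM points of Pecam1, Tie1 and Erg lie below both of their CON points.

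Of the 10 members, 8 passed the filters and none was called in either direction at an adjusted p of 0.05. Exonic depth was tested with limma, with Benjamini-Hochberg adjustment over 6836 genes, of which 11.8% were called, and 3 members had an unadjusted p under 0.05. Gene counts were tested with edgeR's quasi-likelihood test, adjusted over 7899 genes, of which 7.75% were called, and 1 member, Tie1, had an unadjusted p under 0.05. DESeq2 called 0 members, with 1 at an unadjusted p under 0.05, and 3.49% of its genes. All the same, 7 of the 8 members had a lower fitted exonic depth in TM, with a median log2 change of -0.40. Of all genes tested 49.1% were lower, and the median was 0.01. Actb and Gapdh, deep genes outside the lists, were also lower in TM of each mouse. Actb had a depth of 9501, 7886, 14866 and 11228, and Gapdh 3177, 2982, 3705 and 2816. A background matched for depth was not tested. In exonic depth the TM and CON libraries of 5 members did not overlap with TM lower (25.1% of all genes) and those of 1 member did not overlap with TM higher (27.2% of all genes). With the mouse as a replicate block, which uses the fact that both dishes came from the same animal, limma called Pecam1, Tie1 and Erg lower in exonic depth, against 9.70% of all genes called lower, and edgeR called Tie1 lower in counts, against 7.39%. Centring each library on its median gene also called Pecam1, Tie1 and Erg lower, against 12.8% of all genes, and it moved the split of all calls from 437 higher and 372 lower to 568 higher and 874 lower.

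Of the genes of the EC junction and surface, Cdh5 (mm10 chr8:104101625-104144511, plus strand) had an exonic depth of 4729.9 in CON and 4401 in TM of mouse EC1, and 5316 and 4979 of mouse EC2. The groups overlapped, and TM was 0.934 times CON, with a log2 change of -0.10 and a 95% interval of -0.84 to 0.64. Its counts were 491, 454, 442 and 869 in the same order, which after scaling gave a log2 change of 0.11 (SE 0.28, adjusted p = 0.891 from edgeR). Emcn (chr3:137341067-137432185, plus strand) likewise had 3760.2, 3647, 5605 and 4067, with overlapping groups and a log2 change of -0.25 (95% interval -0.99 to 0.49). In counts Emcn went the other way, with 106, 147, 131 and 230, and a log2 change of 0.30 (95% interval -0.32 to 0.93). For both genes the depth and count estimates had opposite signs, and every interval included 0.

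Pecam1 (chr11:106654217-106750628, minus strand) had groups that did not overlap. Its exonic depth was 2247 in CON and 1466 in TM of mouse EC1, and 2750.2 and 1692 of mouse EC2, so both TM dishes lay below both CON dishes. TM was 0.634 times CON (log2 change -0.66, SE 0.32, adjusted p = 0.202 from limma, and 0.0251 with the replicate block), and the change was -0.62 in mouse EC1 and -0.70 in mouse EC2. Its counts of 305, 177, 220 and 329 gave a log2 change of -0.44 (95% interval -1.04 to 0.16), and adjusted p = 0.436 from edgeR did not pass. In counts the mice differed in size, with -0.76 in EC1 and -0.10 in EC2.

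Of the growth factor receptors, Kdr (chr5:75932827-75978458, minus strand) had an exonic depth of 754 in CON and 655 in TM of mouse EC1, and 875 and 564 of mouse EC2. Both TM values lay below both CON values, TM was 0.749 times CON, and the log2 change of -0.42 had a 95% interval of -1.01 to 0.17. Its counts of 104, 62, 97 and 123 gave a log2 change of -0.51 (95% interval -1.17 to 0.14), again without overlap after scaling. Kdr was called by none of the fits of counts or depth.

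Flt1 (chr5:147561604-147726011, minus strand) was the exception among the members, since its exonic depth was higher in TM. It was 102 in CON and 156 in TM of mouse EC1, and 93.4 and 132 of mouse EC2, without overlap. TM was 1.47 times CON (log2 change 0.56, 95% interval -0.02 to 1.13, adjusted p = 0.218 from limma, and 0.0680 with the replicate block). The counts of 96, 70, 53 and 101 overlapped after scaling, with a log2 change of -0.15 (95% interval -0.86 to 0.55). Flt1 also changed along its length. GENCODE vM21 lists a protein-coding transcript of 30 exons, and a shorter one of 13 exons that ends at position 147635159 of chromosome 5, and the split at that end was chosen after the depths were seen. Up to this end the median depth was 113 and 114 in EC1 CON and EC2 CON and 170.0 and 177 in EC1 TM and EC2 TM. Beyond it, where only the longer transcript runs, it was 29.3 and 33.8 in CON and 37.9 and 54.3 in TM. The 5′ part was thus 3.86 and 4.49 times as deep as the 3′ part in CON and TM of mouse EC1, and 3.37 and 3.26 times in mouse EC2. The ratio of the parts overlapped between the groups, and both parts were higher in TM in each mouse, by 0.59 and 0.63 on the log2 scale in the 5′ part and by 0.37 and 0.68 in the 3′ part. The 3′ part rested on 4 to 14 listed sites per library and the 5′ part on 7 to 17.

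**Figure D2:**
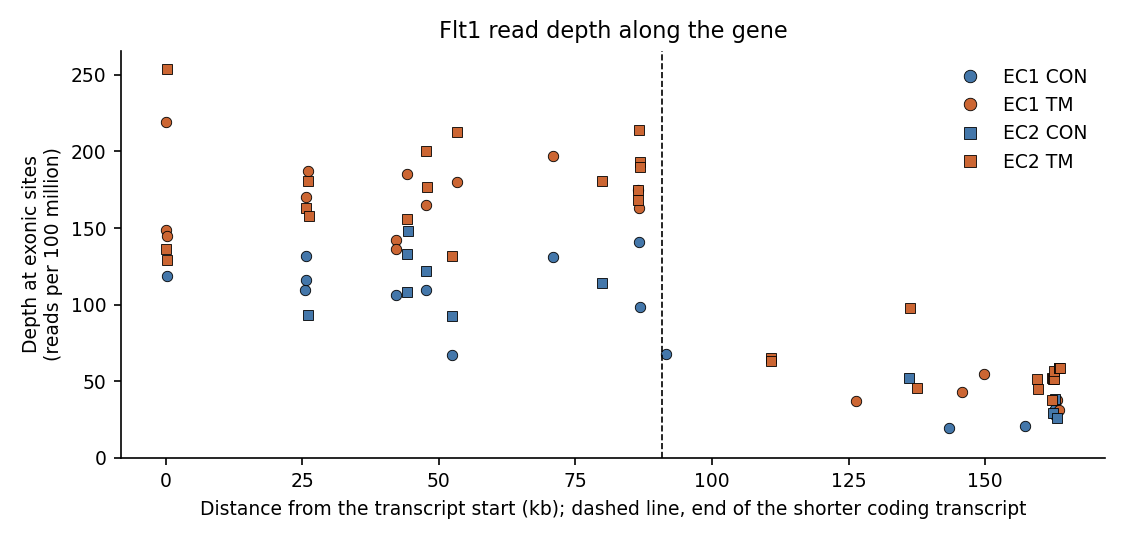
Read depth (reads per 100000000) at each listed exonic site of Flt1 against the distance from the start of its longest transcript (kb), with blue for CON, orange for TM, circles for mouse EC1 and squares for mouse EC2, and a dashed line where the shorter coding transcript ends. Depth falls beyond the line in all 4 libraries, and the median of the 5′ part is 113 and 114 in CON and 170.0 and 177 in TM.

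Of the angiopoietin receptors, Tie1 (chr4:118471191-118490061, minus strand) had the larger fitted change. Its exonic depth was 1433 in CON and 992 in TM of mouse EC1, and 1713 and 949 of mouse EC2, and its counts were 81, 44, 95 and 80. In both measures the TM dishes lay below the CON dishes once scaled. TM was 0.619 times CON in depth (log2 change -0.69, SE 0.30, adjusted p = 0.147 from limma, and 0.0265 with the replicate block). In counts it was 0.540 times CON (log2 change -0.89, SE 0.34, adjusted p = 0.111 from edgeR, and 0.0251 with the replicate block), with -0.86 in mouse EC1 and -0.93 in mouse EC2. DESeq2 with the replicate block gave Tie1 an adjusted p = 0.432, so its counts passed under edgeR and not under DESeq2. Tek (chr4:94739289-94874976, plus strand) had an exonic depth of 139, 95.6, 156 and 132 in the same order of libraries, with TM lower without overlap and a log2 change of -0.39 (95% interval -0.97 to 0.19). The counts of Tek were low, at 23, 27, 19 and 47, and went the other way, with a log2 change of 0.44 (95% interval -0.45 to 1.32).

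Erg (chr16:95359169-95586593, minus strand), the transcription factor among the members, had an exonic depth of 461 in CON and 278 in TM of mouse EC1, and 529 and 328 of mouse EC2. Each TM dish lay below both CON dishes, and the change was near equal in the mice, -0.73 and -0.69. TM was 0.611 times CON (log2 change -0.71, SE 0.28, adjusted p = 0.0981 from limma, and 0.0190 with the replicate block). Its counts of 72, 39, 48 and 84 overlapped after scaling, with a log2 change of -0.36 (95% interval -1.10 to 0.37).

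Vwf (chr6:125546774-125686679, plus strand) and Nos3 (chr5:24364810-24384474, plus strand) were too low for a test. Vwf had 2 counts in each CON library and 0 in each TM library, and a count of 0 allows up to 3 counts, which was 2.74 and 1.69 CPM (counts per 1000000 counts on genes) in EC1 TM and EC2 TM. No fold is given, since every library lay under that limit. The exonic depth of Vwf was 11 and 14 reads in EC1 CON and EC2 CON and 5 and 8.50 reads in EC1 TM and EC2 TM, over 2 to 5 listed sites. Nos3 had 8, 4, 13 and 15 counts in the order given above. Its scaled exonic depth was 38.3, 16.7, 40.8 and 18.6, so both TM values lay below both CON values, but EC1 TM had 1 listed site. Nos3 shares exon bases with Atg9b and Gm15587 on the opposite strand, and no other member shares exon bases with a gene on the opposite strand.

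**Figure D3:**
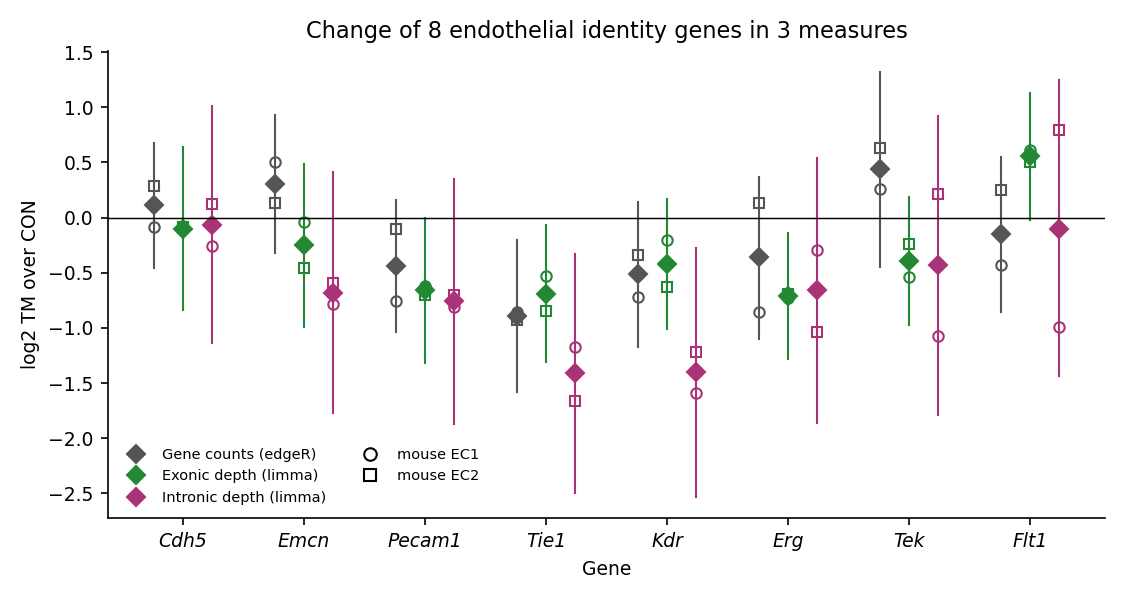
Log2 change from CON to TM of 8 members in gene counts (grey), exonic depth (green) and intronic depth (purple), with diamonds for the fitted value, vertical lines for its 95% interval, and open circles and squares for mice EC1 and EC2. Tie1 lies below 0 in all 3 measures with intervals that exclude 0 before adjustment, Flt1 lies above 0 in exonic depth, and Cdh5 lies near 0 throughout.

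Because the libraries were made from total RNA, introns also carried reads. Intronic depth of the 8 members was lower in TM for all 8 by the fitted value, with a median log2 change of -0.67, where 60.8% of the 5539 genes tested were lower and their median was -0.16. None of the 8 was called by limma, with or without the replicate block, against 1.41% and 1.05% of all genes called without and with it, and 2 members had an unadjusted p under 0.05. These were Tie1 and Kdr. The intronic depth of Tie1 was 49.6 in CON and 22.0 in TM of mouse EC1, and 50.2 and 15.9 of mouse EC2, with a log2 change of -1.41 (95% interval -2.50 to -0.33, adjusted p = 0.299 from limma). That of Kdr was 30.8, 10.2, 20.2 and 8.68, with a log2 change of -1.40 (95% interval -2.53 to -0.28, adjusted p = 0.362 from limma). For both genes each TM library lay below both CON libraries. Groups also did not overlap for Pecam1 (29.3, 16.7, 21.6 and 13.3) and Emcn (41.7, 24.3, 27.2 and 18.1), with TM lower, so that 4 of 8 members showed this, against 16.5% of all genes tested. Cdh5 (52.2, 43.6, 31.0 and 33.8), Erg (log2 change -0.66), Tek (6.39, 3.03, 2.09 and 2.41) and Flt1 (9.02, 4.55, 1.39 and 2.41) overlapped. The fitted change of Kdr and Tie1 was larger in introns than in exons, and that difference was not tested.

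RefSeq promoters (GRCm38.p6, 250 bases before to 50 after a start) were matched for 6 of the 10 members. They were read for the letters AGGAAG and CGGAAG, which ETS factors such as Erg bind, and AACAGGAA, a combined FOX and ETS site, on both strands. Tie1 and Flt1, whose fitted changes in exonic depth had opposite signs, are shown with Emcn, which held the combined site, and capitals mark the matches.
Tie1 promoter, chr4:118489800-118490099, minus strand: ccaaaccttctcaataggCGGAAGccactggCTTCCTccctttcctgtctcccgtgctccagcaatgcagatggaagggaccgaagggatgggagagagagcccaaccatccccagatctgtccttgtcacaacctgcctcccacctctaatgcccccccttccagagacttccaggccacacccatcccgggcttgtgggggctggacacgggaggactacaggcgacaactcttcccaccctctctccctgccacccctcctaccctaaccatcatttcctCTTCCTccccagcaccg
Flt1 promoter, chr5:147725962-147726261, minus strand: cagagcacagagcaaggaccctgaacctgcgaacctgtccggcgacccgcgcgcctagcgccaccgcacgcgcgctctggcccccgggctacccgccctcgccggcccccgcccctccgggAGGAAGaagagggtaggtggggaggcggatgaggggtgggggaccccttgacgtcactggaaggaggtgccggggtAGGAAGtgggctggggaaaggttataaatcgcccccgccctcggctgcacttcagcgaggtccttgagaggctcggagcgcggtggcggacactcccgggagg
Emcn promoter, chr3:137340828-137341127, plus strand: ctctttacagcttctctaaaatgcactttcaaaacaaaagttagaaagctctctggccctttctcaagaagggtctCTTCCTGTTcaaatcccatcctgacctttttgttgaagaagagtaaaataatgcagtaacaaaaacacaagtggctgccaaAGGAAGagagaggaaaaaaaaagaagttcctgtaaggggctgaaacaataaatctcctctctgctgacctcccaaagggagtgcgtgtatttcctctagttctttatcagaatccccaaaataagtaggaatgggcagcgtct
The Tie1 promoter held AGGAAG at 2 places and CGGAAG at 1, and the Flt1 promoter held AGGAAG at 2 places. In Emcn, 1 of its 2 AGGAAG matches overlapped the AACAGGAA match, and 1 of the 3 starts of Erg held AGGAAG. Kdr and Tek held none of these letters in the window. Of 32851 promoters of this length, 35.4% held AGGAAG, 16.9% held CGGAAG and 2.65% held AACAGGAA.

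Editing in the members lay outside their exons. A site was taken as edited in a library where its depth was 5 reads or more, 3 or more of them altered, and its rate lay from 0.05 to 0.95. Of 1990 exonic and UTR sites of the members with at least 5 reads in a library, 0 passed in any library, where 0.624% of the exonic sites of all genes did. This held at high depth: in Cdh5 the highest exonic rate among sites of at least 20 reads was 0.135% in EC1 CON (8 of 5934 reads), 0.102% in TM of that mouse, and 0.0655% and 0.0959% in CON and TM of mouse EC2. In Pecam1 it was at most 0.423%, 19 of 4492 reads in EC2 TM. In introns 31 of 1121 member sites passed, 2.77%, against 5.14% of the intronic sites of all genes, and 4 more passed outside the genes' transcripts. Of these 35 sites, 27 lay in repeats and 22 in SINEs, short interspersed elements. These SINEs were mostly B1, B2 and B3 elements, and B3 belongs to the B2 family. Pecam1 held 16 of them, Tie1 7, Emcn 6, Tek 3, and Cdh5, Kdr and Flt1 1 each, and Erg, Vwf and Nos3 none.

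Of the Tie1 sites, 6 lay in intron 13, where a B1_Mur4 and a B1_Mus1 element lie in opposite orientation with 20 bases between them. The region is printed because it holds most of the Tie1 sites, read from an annotated Tie1 transcript of GENCODE vM21 (GRCm38), 5′ to 3′ on the transcribed minus strand, with the edited adenosines in capitals.
Tie1 B1 pair, chr4:118478040-118478269: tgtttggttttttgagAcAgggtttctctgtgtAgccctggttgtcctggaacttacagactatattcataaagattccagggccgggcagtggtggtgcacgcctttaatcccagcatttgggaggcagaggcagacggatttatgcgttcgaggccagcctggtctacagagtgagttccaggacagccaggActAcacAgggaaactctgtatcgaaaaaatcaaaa
The first 62 bases are B1_Mur4 and the last 148 are B1_Mus1, and in an alignment of one with the reverse complement of the other 48 of 56 bases were identical (85.7%). Counted from the 5′ end, the edited adenosines are bases 17, 19 and 34 in B1_Mur4 and 195, 198 and 202 in B1_Mus1. Base 17 passed the limits in 4 libraries, bases 34 and 202 in 2 each, and bases 19, 195 and 198 in only 1 each. At base 34 (position 118478236) the altered reads were 5 of 43, 2 of 27, 10 of 51 and 2 of 26, rates of 0.116, 0.0741, 0.196 and 0.0769. At base 198 (position 118478072) they were 9 of 112, 1 of 45, 4 of 82 and 1 of 65. At base 202 (position 118478068) they were 7 of 109 in EC1 CON and 8 of 79 in EC2 CON. Neither TM library lists the site. A site not listed has no depth in that library, so absent altered reads cannot be told from absent reads or filtering. Base 19 (position 118478251) was also listed in CON only, with 2 of 44 and 3 of 44 reads. At base 17 (position 118478253) the rates were 0.0889, 0.125, 0.114 and 0.120, and at base 195 (position 118478075) 0.00935, 0.0222, 0.0494 and 0.0645. Thus 4 of the 6 adenosines had lower rates, or no listing, in both TM libraries and 2 had not, in an intron whose depth was itself lower in TM. Fisher's exact test was run where both libraries of a mouse list a site and at least 1 passed the limits above, and at none of the adenosines so tested was the unadjusted p under 0.05.

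**Figure D4:**
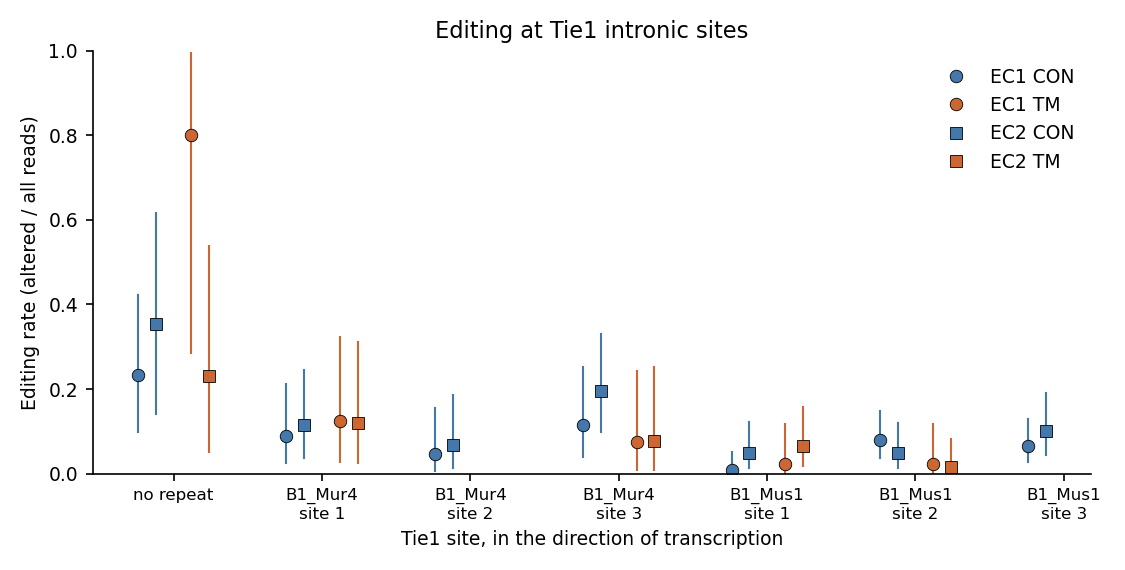
Editing rate (altered over all reads) at the 7 edited intronic sites of Tie1 in the direction of transcription, with 95% Clopper-Pearson intervals, blue for CON, orange for TM, circles for mouse EC1 and squares for mouse EC2. A site that a library does not list has no point; within the B1 pair the intervals of CON and TM overlap wherever both are listed.

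The other member sites did not share a direction. In Pecam1, 2 adjacent sites in a B3 element of intron 7 (positions 106688168 and 106688169 of chromosome 11) had rates of 0.227, 0.219, 0.170 and 0.283, and of 0.222, 0.0938, 0.154 and 0.151, in the order of libraries given above, at depths of 32 to 53 reads. A Pecam1 site outside any repeat (position 106683622, intron 9) was altered in 19 of 53, 4 of 22, 10 of 35 and 12 of 33 reads. In Cdh5 the single site, in intron 8 (position 104137764 of chromosome 8) and outside any repeat, was altered in 5 of 90, 12 of 81, 9 of 51 and 23 of 87 reads, so TM was the higher in each mouse. Its Fisher's exact p was 0.0708 in EC1 and 0.298 in EC2. The Tie1 site in intron 1 (position 118489645 of chromosome 4) had 7 of 30 and 4 of 5 reads altered in EC1 CON and EC1 TM (Fisher's exact test, p = 0.0258, adjusted p = 0.696), and 6 of 17 and 3 of 13 in EC2. Over all member sites that could be tested, 0 of 15 were called in EC1 and 0 of 14 in EC2, against 0.747% and 1.83% of the sites of all genes, with 1 and 0 at an unadjusted p under 0.05. Fisher's exact test compares the 2 libraries of a mouse and not the conditions. The mean rate over the sites that passed in either library of a mouse went from 0.175 in CON to 0.142 in TM in EC1 (24 sites) and from 0.188 to 0.131 in EC2 (23 sites), where a site that a library did not list was set to 0. Over the sites of all genes it went from 0.368 to 0.337 in EC1 and from 0.382 to 0.365 in EC2, a difference of -0.0317 and -0.0164, beside -0.0329 and -0.0578 for the members. Over the sites that both libraries list it went from 0.173 to 0.193 (15 sites) and from 0.174 to 0.214 (14 sites), so the direction rested on the sites not listed. With 2 mice no permutation test over animals can give a p under 0.5.

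A wider list of 30 other endothelial genes was read beside the members. It was chosen with earlier results of these data known, so its calls beside those of all genes are a description and not a test of the list. In exonic depth 6 of the 25 tested were called lower in TM and none higher, with a median log2 change of -0.45, against 5.44% of all genes called lower. In counts 3 of the 23 tested were called lower and none higher, with a median of -0.08, against 3.35%. Sox18, a transcription factor of early vessels, had a depth of 1364, 432, 1662 and 402 (0.277 times CON, log2 change -1.85, SE 0.29, adjusted p = 3.19e-05 from limma). Clec14a, a surface lectin of ECs, had 607, 198, 559 and 150.5 (0.296 times CON, adjusted p = 3.80e-05). Cldn5, a tight junction claudin, had 2236, 909, 3015 and 739 (0.316 times CON, adjusted p = 3.66e-04). These 3 genes were also lower in counts under edgeR, with adjusted p of 0.00541, 0.00876 and 0.0176, though DESeq2 gave 0.0734, 0.117 and 0.171. Ednrb, an endothelin receptor (log2 change -1.38, adjusted p = 0.00122 from limma), Mmrn2, a matrix protein that binds Clec14a (-1.07, 0.0108), and Fli1, an ETS factor related to Erg (-0.92, 0.0285), were called lower in depth only. Fli1 depth was 416, 235, 557 and 274, so both TM values lay below both CON values. In depth, 3 of these 6 were called without EC1 TM and 2 without EC2 TM. In counts, Sox18 alone was called without EC2 CON, and none of Sox18, Clec14a and Cldn5 without EC2 TM.

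**Figure D5:**
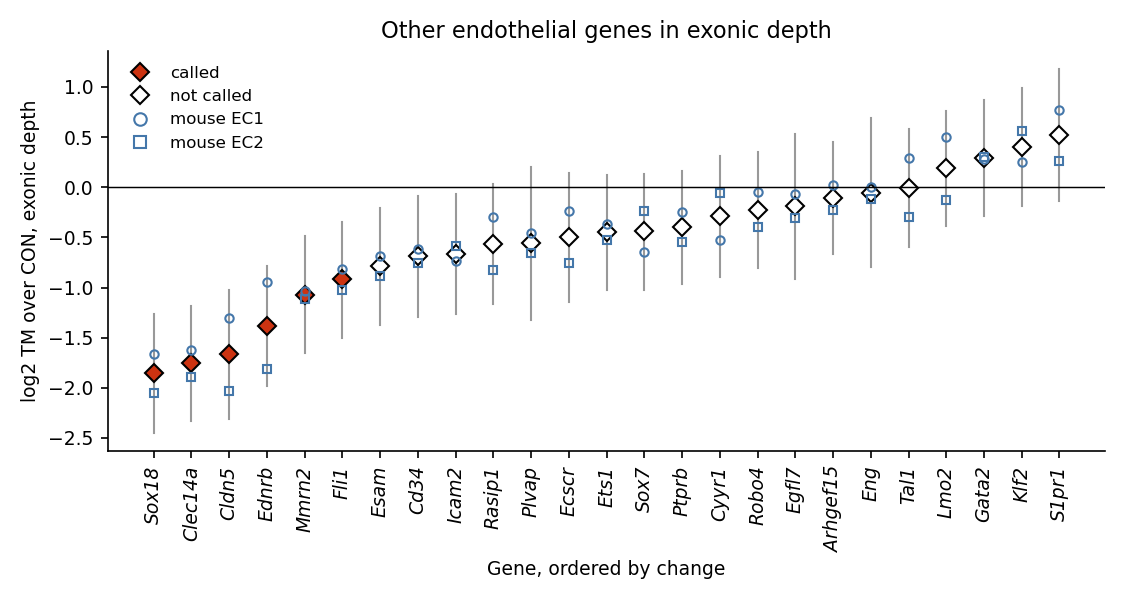
Log2 change of exonic depth from CON to TM of the 25 other endothelial genes tested, ordered by size, with diamonds for the fitted value (red where called), lines for the 95% interval, and open circles and squares for mice EC1 and EC2. The 6 called genes lie at the low end, from Sox18 at -1.85 to Fli1 at -0.92, and none of the genes above 0 was called.

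Among 10 ligands and co-receptors of the member receptors, 4 were tested in exonic depth and 4 in counts. Vegfa, a ligand of Kdr and Flt1, was called higher in both. Its depth was 9.77 in CON and 93.3 in TM of mouse EC1, and 4.18 and 126 of mouse EC2. TM was 17.0 times CON (log2 change 4.09, SE 0.38, adjusted p = 2.89e-09 from limma), with 3.26 in EC1 and 4.92 in EC2. The CON depth rested on few reads, with 3 sites (median 13 reads) in EC1 and 5 (median 6 reads) in EC2. The size of the fold is thus uncertain. Its counts were 2, 35, 0 and 47. Angpt2, the angiopoietin that ECs make, was the highest of the list at 3337, 3109, 4827 and 3029 and was not called (log2 change -0.39, 95% interval -1.10 to 0.33). Nrp2, a co-receptor, had 640.2, 405, 681 and 371 (log2 change -0.77, adjusted p = 0.0727, and 0.0167 with the replicate block).

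Markers of other cells were read in the same fits, and their part in the members' values was not tested. All 5 lymphatic endothelial markers had listed sites in every library, with a summed exonic depth of 7678 and 10410 in CON and 6205 and 6584 in TM. Lyve1 was the highest, at 4306, 4151, 6194 and 4476, and Prox1 (log2 change -1.57, adjusted p = 1.43e-04 from limma) and Reln (-1.47, adjusted p = 4.49e-04) were called lower in TM in depth and, under edgeR, in counts, where DESeq2 gave 0.0849 and 0.00718. Of 12 fibroblast and smooth muscle markers 8 to 11 had a listed site, summing to 599 and 945 in CON and 208 and 325 in TM, against 13673 and 17088 in CON and 11711 and 12866 in TM for the 10 members. In these depth sums a marker without a listed site in a library was set to 0. Acta2, Col1a2 and Col3a1, at 93.9, 51.1 and 20.3 in EC1 CON, were not listed in EC1 TM. Part of the lower sum of EC1 TM thus rested on markers not listed. In counts they summed to 609 and 541 CPM in CON and 613 and 512 CPM in TM. The members summed to 1176 and 916 CPM in CON and 934 and 1056 CPM in TM. Most of the marker sum was Tagln, with 548, 534, 553 and 761 counts beside a median depth of 155, 108, 350 and 241 reads. The lower sum in TM and its small share were seen in depth only. Counts, as said above, are not an independent measure of level. Dcn had a depth of 255, 92.9, 311 and 104. Tagln, the only one tested in depth, had 116, 81.9, 244 and 116 and was not called (log2 change -0.79, adjusted p = 0.109 from limma, and 0.0420 with the replicate block). Leukocyte markers summed to 28.6 to 36.8 in CON and 20.9 to 36.0 in TM, with Ptprc, Itgam, Adgre1 and Cd3e without a listed site and most of the rest from Cd68 and Lyz2. Epithelial markers summed to 35.3 and 30.7 in CON and 31.9 and 40.3 in TM, nearly all of it Krt18, with Epcam, Cdh1, Nkx2-1, Scgb1a1, Sftpb and Sftpc without a listed site. Of 9 genes of mesenchymal transition Fn1 was the highest, at 12584, 11280.2, 14579 and 12340.4, and was not called. Snai2 (2.71) and Zeb2 (1.09) were called higher in depth and, under edgeR, in counts, and S100a4 (-2.69) was called lower in depth, with adjusted p of 5.61e-08, 0.00834 and 2.74e-07 from limma. DESeq2 did not call the counts of Snai2 and Zeb2 (adjusted p of 0.183 and 0.0891). Of the 8 genes of this list tested in depth, 5 had a fitted change below 0 and 3 above, with a median of -0.18. Snai1 had counts of 17, 1, 25 and 16, with a log2 change of -1.75 (adjusted p = 0.0913 from edgeR, and 0.0147 with the replicate block). Its depth changed less, at 234, 170.0, 225 and 198, and was not called (log2 change -0.32, adjusted p = 0.520 from limma, and 0.197 with the replicate block). In bulk cultures, fewer cells of a type and less RNA per cell cannot be told apart.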

How the data were processed

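Total RNA of 4 EC cultures was read as gene counts and as a table of candidate editing sites. Per the labels, reads were trimmed with Trimmomatic 0.38, aligned to mm10 with STAR 2.6.1a and counted on genes with HTSeq 0.11.2; the authors deposited raw counts, without normalization, with 92.8% to 93.9% of the table totals on no gene and 5.29% to 6.32% from alignments that were not unique. In the deposited site table each library has read counts for the unaltered and the altered base of a site, and the altered fraction, its editing rate; how it was filtered before deposit is only partly given in the sources used here. Table totals ranged from 131796753 to 207323870.

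Counts were tested with edgeR 4.0.16 (TMM, filterByExpr) and log2 exonic and intronic depth with limma 3.58.1 (trend, at least 3 listed sites in each library, no pseudocount), with DESeq2 1.42.0 as an alternative, in R 4.3.3. Groups were the 2 CON and 2 TM libraries of the labels. Benjamini-Hochberg adjustment ran over all genes tested. Sites were compared with Fisher's exact test (SciPy 1.17.1) within each mouse, on sites that passed in either library and are listed in both. Intervals of rates are exact 95% Clopper-Pearson intervals and cover counting error only, since reads carry no molecular identifiers. CON and TM of a mouse come from the same animal per the study's methods; the correlation of their deviations was 0.163. The genes and gene lists were chosen with earlier results of these data known. All 10 members are named; of the other endothelial genes those called, and of other lists the one with the highest mean exonic depth and those called. Gene positions are GENCODE vM21 and promoters RefSeq GRCm38.p6. Alternatives changed the scaling, tool, filter, site class, replicate block and libraries used.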

Additional observations from a re-analysis of the deposited data

How the results depend on the processing

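Of the fits with another setting, 3 moved the number of members called from 0. In counts, edgeR with the mouse as a replicate block called 1, Tie1. In exonic depth, limma with the replicate block and centring on the median gene each called 3, Pecam1, Tie1 and Erg. No member was called in any intronic fit, or with any 1 library left out, where the lone sample of a group is assumed to vary like the other group. Of the other endothelial genes, the call count in gene counts was 3, and it was 0 with DESeq2 and 0 with DESeq2 and the replicate block, where 3 and 4 had an unadjusted p under 0.05, and 1 to 3 with 1 library left out (1 without EC2 CON and 1 without EC2 TM). In exonic depth it was 6, and 13 when centred, 2 at sites listed in both libraries (where 12 of the 25 could be tested, without Sox18, Cldn5, Fli1 and Ednrb), 9 with the replicate block and 2 to 9 with 1 library left out (3 without EC1 TM and 2 without EC2 TM). At sites listed in both libraries Flt1 and Erg had too few sites for a value. The replicate block changed no other call of a member.

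Directions turned only where the change was called neither in the planned fit nor in the fit that turned it. With 1 library left out, the log2 change ranged from -0.04 to 0.24 for Cdh5 in counts, from -0.50 to 0.30 for Flt1 in counts, from -0.54 to 0.03 for Emcn in exonic depth, and in introns from -0.44 to 0.31 for Cdh5, from -1.44 to 1.25 for Flt1 and from -1.24 to 0.37 for Tek. Ednrb in counts ranged from -2.04, called without EC2 TM, to 0.02. Centring intronic depth gave 0.08 for Cdh5 and 0.05 for Flt1. The direction of Pecam1, Kdr, Tie1 and Erg was the same in every fit that gave a value.

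The TM minus CON mean editing rate, -0.0329 in EC1 and -0.0578 in EC2, moved to -0.0157 in EC2 at depths of at least 10, to 0.0134 and -0.0116 at 20, to -0.0763 and 0.0309 with at least 5 altered reads, to 0.0200 and 0.0409 at sites listed in both libraries, and to -0.0138 and 0.0386 weighted by reads. The cause was not tested. Depth limits the edited sites, as the counts of altered reads beside each site show.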
